A study of Mus musculus with 8 samples.

Results

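The 10 genes described here are the TGF-beta receptors Tgfbr1 and Tgfbr2, the ligand gene Tgfb1, the signal transducers Smad3 and Smad7, the activin beta subunits Inhba, Inhbb, Inhbc and Inhbe, and the activin antagonist Fst, out of 35638 genes in a table of mouse liver RNA sequencing. They were taken by symbol and chosen by their KO against WT difference in these FPKM values, so that difference is given for them as a description, without a p-value, and where they stand against the threshold used for all genes supports nothing. RNA came from frozen liver of mice of a mixed C57/B6 and 129 background at postnatal day 90. In the 4 KO libraries both Arid1a alleles were floxed and Alb-cre was present, a transgene that expresses Cre recombinase under an albumin promoter and so in hepatocytes, and in the 4 WT libraries the same floxed alleles were present without Cre. The Arid1a protein belongs to the BAF form of the SWI/SNF chromatin remodellers, and liver cells that do not express the transgene keep the gene. Nothing in the labels says whether the 4 libraries of a group came from separate animals, so p-values measure the spread between libraries, which may be technical.

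TGF-beta and the activins are secreted dimers of 1 protein superfamily. A dimer binds a type II receptor kinase, such as TGFBR2 or an activin receptor, which phosphorylates a type I receptor, such as TGFBR1. The type I receptor then phosphorylates SMAD2 and SMAD3, which enter the nucleus with SMAD4. SMAD7 is induced by the pathway and blocks it at the receptor, and follistatin, the product of Fst, binds activins outside the cell. In liver, TGF-beta restrains hepatocyte growth and drives stellate cells to make matrix, and Inhbc and Inhbe are transcribed mainly in hepatocytes.

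The promoters of Tgfbr2, Inhbc and Inhbe are shown because Tgfbr2 and Inhbc were the members whose groups did not overlap, in opposite directions, and because Inhbe is the genomic neighbour of Inhbc. Each window runs 5′ to 3′ from 250 bases before to 50 bases after the RefSeq start on GRCm38.p6, on the minus strand. Tgfbr2 is at chr9:116175314-116175613, Inhbc at chr10:127370499-127370798 and Inhbe at chr10:127351799-127352098. Capitals mark matches to the SMAD motif CAGAC and to the C/EBP motif TTGCNNAA, on either strand, and none of the matches overlap.
Tgfbr2: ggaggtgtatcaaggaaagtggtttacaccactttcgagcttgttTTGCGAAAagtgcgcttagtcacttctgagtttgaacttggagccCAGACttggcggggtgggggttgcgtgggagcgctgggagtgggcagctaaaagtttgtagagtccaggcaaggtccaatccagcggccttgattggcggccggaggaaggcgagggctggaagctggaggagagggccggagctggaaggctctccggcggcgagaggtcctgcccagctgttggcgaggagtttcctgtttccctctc
Inhbc: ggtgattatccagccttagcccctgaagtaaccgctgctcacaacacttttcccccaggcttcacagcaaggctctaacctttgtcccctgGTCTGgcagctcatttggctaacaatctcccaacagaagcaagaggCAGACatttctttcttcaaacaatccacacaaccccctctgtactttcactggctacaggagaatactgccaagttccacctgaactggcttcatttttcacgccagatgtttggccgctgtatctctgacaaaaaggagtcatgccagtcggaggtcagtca
Inhbe: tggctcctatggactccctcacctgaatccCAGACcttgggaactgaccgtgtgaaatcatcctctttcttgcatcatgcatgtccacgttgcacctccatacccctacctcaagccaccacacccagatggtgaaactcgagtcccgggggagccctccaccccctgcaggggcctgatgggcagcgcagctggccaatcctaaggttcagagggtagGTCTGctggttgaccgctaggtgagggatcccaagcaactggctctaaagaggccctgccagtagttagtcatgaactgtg
The SMAD motif occurred in 1 place in the Tgfbr2 window, 2 in the Inhbc window and 2 in the Inhbe window, and 49.6% of the 32851 promoters in the RefSeq table held it on either strand. The C/EBP motif occurred in the Tgfbr2 window, starting 205 bases before the start, and in 10.8% of promoters. The AP-1 motif TGANTCA (7.81% of promoters), the GC box GGGCGG (35.7%), the HNF4 motif CAAAGTCCA (0.475%) and the TATA box TATAAA (13.6%) were searched on both strands and not found in these 3 windows, which says only that these letters are not there. Of the 10 genes 8 had an entry in the promoter table. The Tgfbr2 window held 15 CpG dinucleotides, the Inhbc window 4 and the Inhbe window 6, against a median of 7 over all promoters.

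Values are FPKM, fragment numbers scaled to gene length and library size, as the authors deposited them. Depth, estimated from the spacing of the lowest values, was about 13700000 to 15200000 reads in KO libraries and 12400000 to 13600000 in WT libraries. Arid1a, the targeted gene, was at 2.59 to 3.46 FPKM in KO livers and at 3.998 to 8.38 FPKM in WT livers, without overlap. Over all genes with a mean of at least 1 FPKM, limma called 46 higher and 40 lower in KO at an adjusted p under 0.05, which is 0.763% of 11266 genes tested, and the groups did not overlap in 6.23% of them. Of the 10 members 8 passed the filter on the mean and were in this fit, and Tgfb1 and Inhbb did not reach it. Past the threshold were 1 higher member, Tgfbr2, beside 0.408% of all genes tested, and 1 lower member, Inhbc, beside 0.355%. The groups did not overlap in 2 of the 10 members, again Tgfbr2 with KO above WT (3.05% of genes tested) and Inhbc with KO below WT (3.18%), and over all genes above 0 in any library this share was 5.99%. Nothing is read from these counts.

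**Figure D1:**
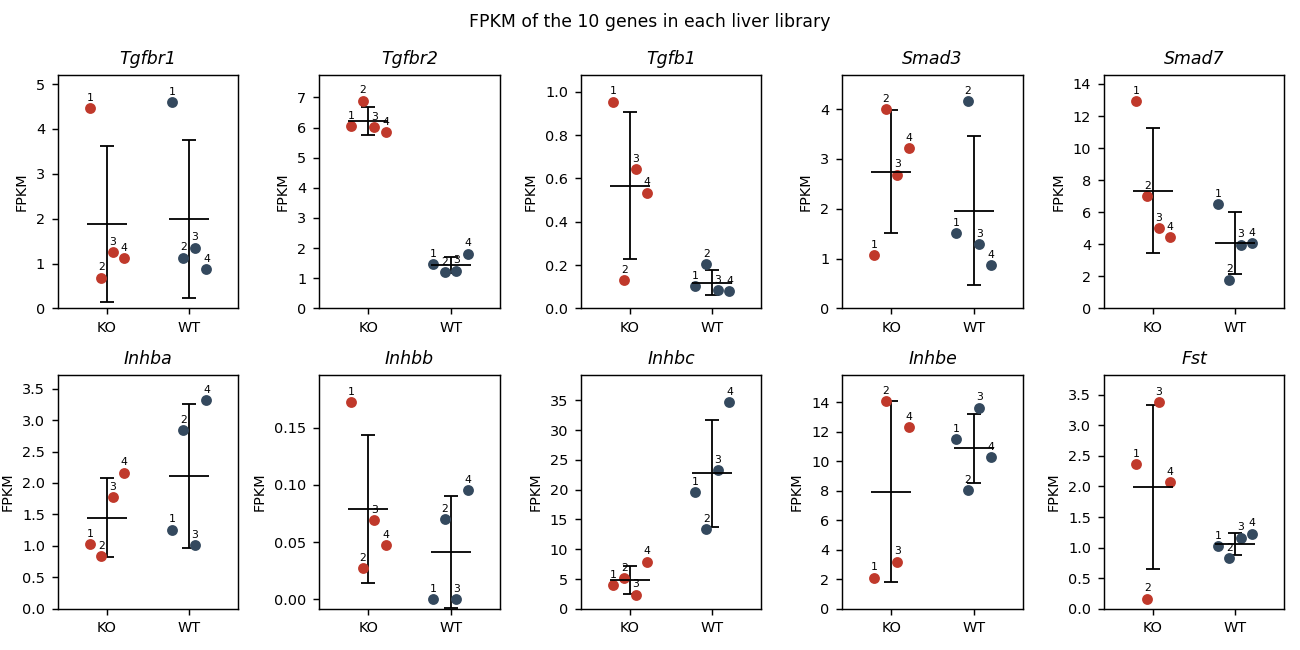
FPKM of each of the 10 genes in KO (red, left) and WT (blue, right) livers. Each point is 1 library with its replicate number beside it, and bars give the mean ± SD (n = 4 each). Tgfbr2 sits between 5.86 and 6.90 FPKM in KO and between 1.21 and 1.82 FPKM in WT, Inhbc lies lower in every KO library, and the other genes overlap between the groups.

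FPKM is per length, so levels can be ordered between genes as far as the lengths behind them hold. Which lengths the authors used is not stated, and annotated transcripts of 1 gene differ in length by up to 15.5 times (Tgfbr1). By mean level in KO livers the order was Inhbe, Smad7, Tgfbr2, Inhbc, Smad3, Fst, Tgfbr1, Inhba, Tgfb1 and Inhbb, and the ranges of every pair of neighbours in this order overlapped. In WT livers it was Inhbc, Inhbe, Smad7, Inhba, Tgfbr1, Smad3, Tgfbr2, Fst, Tgfb1 and Inhbb, where the ranges of Inhbe and Smad7 and those of Fst and Tgfb1 did not overlap and those of the other neighbours did. Tgfbr2 thus stood above Inhbc in KO and far below it in WT. The mean of Inhbc lay above that of 85.5% of all genes in KO and of 95.8% in WT, and the mean of Tgfbr2 above 87.8% in KO and 72.2% in WT.

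Tgfbr2, the type II receptor gene for TGF-beta (ENSMUSG00000032440, chromosome 9, 116084293 to 116175360, GRCm38), was about 4 times as high in KO livers. It was at 6.06, 6.90, 6.02 and 5.86 FPKM in KO 1 to KO 4, against 1.48, 1.21, 1.26 and 1.82 FPKM in WT 1 to WT 4. The lowest KO library lay well above the highest WT library, and both groups were tight. The means were 6.21 ± 0.466 FPKM in KO and 1.44 ± 0.278 FPKM in WT (SD, n = 4 each), a ratio of 4.31. On the scale of log2(FPKM + 1) the difference was 1.57 ± 0.16 (SE). The spread of Tgfbr2 within groups was an SD of 0.130 on that scale, smaller than for most genes: 2.7% of the genes tested had a smaller one, and their median was 0.341. Spread on this scale shrinks at low levels, and the gene was chosen on these values, so this rank supports nothing. The values correspond to about 668 to 848 reads in KO libraries and 132 to 182 in WT libraries when taken over the longest annotated transcript. GENCODE M21 lists 2 transcripts, of 3476 and 8092 nt, and their use was not tested.

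Tgfbr1, the type I receptor gene for TGF-beta (ENSMUSG00000007613, chromosome 4, 47353222 to 47414931), had mean levels that differed by less than their spread, with 1 high library in each group. It was at 4.46, 0.687, 1.26 and 1.13 FPKM in KO 1 to KO 4, against 4.60, 1.14, 1.35 and 0.879 FPKM in WT 1 to WT 4. Replicate 1 was high in both groups and the other libraries lay near 1 FPKM. The means were 1.88 ± 1.73 FPKM in KO and 1.99 ± 1.75 FPKM in WT (SD, n = 4 each), with a log2 difference of -0.06 ± 0.43 (SE). In the absence of WT 1 the difference was 0.29, and it was also positive without KO 2 or without KO 4, so its sign is not determined. Its 5 annotated transcripts range from 372 to 5756 nt, and how the authors assigned fragments to transcripts is not given in the sources used here. Within a library, the level of Tgfbr2 was 1.36 to 10.04 times that of Tgfbr1 in KO livers and 0.322 to 2.07 times in WT livers, and KO 1 overlapped the WT range.

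Tgfb1, the gene of the main TGF-beta ligand (ENSMUSG00000002603, chromosome 7, 25687002 to 25705077), was low everywhere and was not in the fit. It was at 0.955, 0.131, 0.644 and 0.535 FPKM in KO 1 to KO 4, against 0.105, 0.205, 0.0862 and 0.0789 FPKM in WT 1 to WT 4. KO 1, KO 3 and KO 4 lay above all WT libraries, and KO 2 lay inside the WT range. Over the longest transcript these values amount to about 33.9, 5.1, 22.7 and 20.4 reads in KO 1 to KO 4, against 3.4, 7.1, 3.0 and 2.5 reads in WT 1 to WT 4. These read numbers are rough, since annotated transcripts of Tgfb1 run from 241 to 2573 nt and the depth is itself an estimate. The low counts limit what KO 2 and the WT libraries can show.

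Smad7, the inhibitory Smad gene induced by the pathway (ENSMUSG00000025880, chromosome 18, 75367529 to 75395935), was at 12.9, 7.01, 4.99 and 4.47 FPKM in KO 1 to KO 4, against 6.52, 1.79, 3.98 and 4.08 FPKM in WT 1 to WT 4. The groups overlapped, with WT 1 above KO 3 and KO 4. The means were 7.35 ± 3.89 FPKM in KO and 4.09 ± 1.93 FPKM in WT (SD, n = 4 each), with a log2 difference of 0.70 ± 0.36 (SE). Replicate 1 was the highest of its group in Smad7 as in Tgfbr1.

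Smad3, which carries the signal of TGF-beta and activin to the nucleus (ENSMUSG00000032402, chromosome 9, 63646767 to 63757994), was at 1.07, 3.999, 2.68 and 3.22 FPKM in KO 1 to KO 4, against 1.51, 4.16, 1.29 and 0.862 FPKM in WT 1 to WT 4. Replicate 2 was the highest library of each group, and KO 1 lay below WT 1, WT 2 and WT 3. The means were 2.74 ± 1.24 FPKM in KO and 1.96 ± 1.49 FPKM in WT (SD, n = 4 each), a log2 difference of 0.39 ± 0.36 (SE).

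Among receptors and Smads that are no members, some libraries also stood far above the rest. Acvr1, a type I receptor gene, reached 5.16 FPKM in KO 4, with at most 0.836 FPKM in the other KO libraries. Smad2, the partner of Smad3, reached 4.06 FPKM in WT 3, with at most 0.621 FPKM in the other WT libraries. Smad5, of the BMP branch, was at 4.53 and 4.88 FPKM in KO 2 and KO 4 and 3.76 FPKM in WT 1, and at 1.22 FPKM or less elsewhere. These genes were picked after their values were seen.

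**Figure D2:**
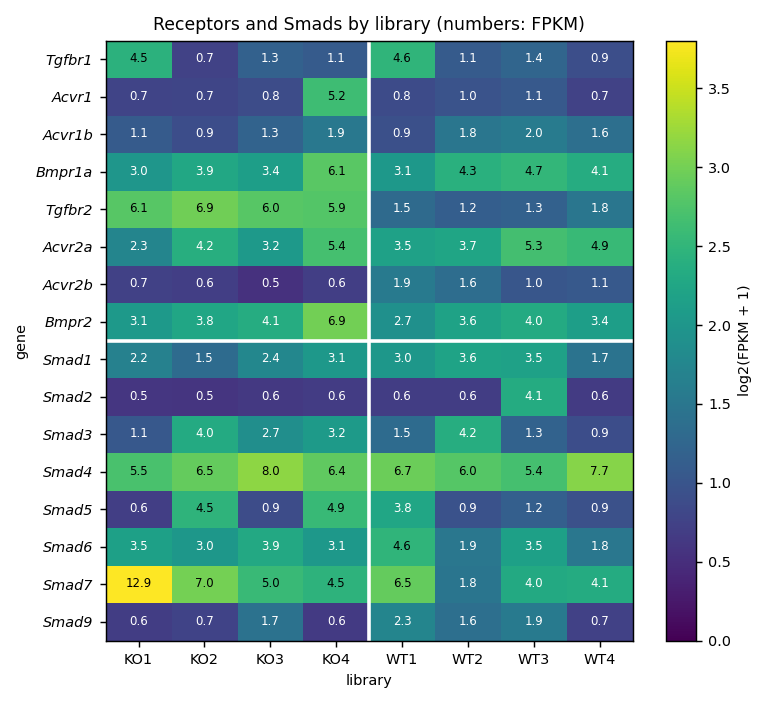
FPKM of 8 receptor genes (top block; type I then type II) and 8 Smad genes (bottom block) in the 8 libraries, KO to the left of WT. Colour gives log2(FPKM + 1) and the numbers FPKM. The row of Tgfbr2 is even within each group, whereas Tgfbr1, Acvr1 and Smad2 have single libraries well above the others of a group, and Smad5 is high in KO 2, KO 4 and WT 1.

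Of the activin subunit genes made in hepatocytes, Inhbc had groups that did not overlap and Inhbe had groups that did. Their differences were both negative and were not tested against each other. Inhbc, the beta C subunit gene (ENSMUSG00000025405, chromosome 10, 127356322 to 127370431), was at 4.02, 5.21, 2.38 and 7.92 FPKM in KO 1 to KO 4, against 19.6, 13.4, 23.2 and 34.8 FPKM in WT 1 to WT 4. No KO value reached the lowest WT value. Inhbc means were 4.88 ± 2.33 FPKM in KO and 22.8 ± 8.98 FPKM in WT (SD, n = 4 each), a ratio of 0.214, with a log2 difference of -2.03 ± 0.35 (SE). This difference was -1.79 without KO 3, -1.80 without WT 4, -1.98 without KO 1, -1.99 without WT 3 and -2.07 without WT 1, and in each of these fits Inhbc was no longer past the threshold. Inhbc has a single annotated transcript.

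Inhbe, the beta E subunit gene (ENSMUSG00000047492, chromosome 10, 127348857 to 127354411), lies 1911 bp from Inhbc on the same strand. It was at 2.12, 14.1, 3.19 and 12.3 FPKM in KO 1 to KO 4, against 11.5, 8.06, 13.6 and 10.3 FPKM in WT 1 to WT 4. KO 1 and KO 3 lay below all WT libraries, KO 2 lay above all of them, and KO 4 lay inside their range. The means were 7.93 ± 6.14 FPKM in KO and 10.9 ± 2.33 FPKM in WT (SD, n = 4 each), and the log2 difference was -0.71 ± 0.49 (SE). KO 1 and KO 3 were also the lowest KO libraries of Inhbc. The ratio of Inhbc to Inhbe within a library was 1.90, 0.370, 0.744 and 0.642 in KO 1 to KO 4, against 1.70, 1.67, 1.70 and 3.37 in WT 1 to WT 4, so KO 1 lay inside the WT range and the other KO libraries below it. The RefSeq start of Inhbe lies inside the single GENCODE transcript, so the length behind its FPKM is uncertain.

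An annotated antisense gene, Gm47200, overlaps both Inhbc and Inhbe, and since the use of strand is not given, its reads cannot be told apart from theirs. It shares 13.1% of the 31-base stretches of Inhbc, through this overlap. The other genes within 100000 bp of Inhbc that were in the fit were not called. They were Dctn2 (log2 difference -0.33, limma adjusted p = 0.606), Mbd6 (0.00, 0.998), Ddit3 (-0.27, 0.840), Mars (-0.25, 0.870) and R3hdm2 (0.47, 0.745). Dctn2 was at 10.7 to 14.3 FPKM in KO and 14.6 to 19.4 FPKM in WT, without overlap, as were 3.18% of genes tested in that direction. The groups of the others overlapped. Within the same distance of Tgfbr2, the fit held the pseudogene Gm9385 (-0.23, limma adjusted p = 0.871), and Gadl1 was at 0.111 to 0.327 FPKM in KO and 0.165 to 0.341 FPKM in WT.

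Inhba, the beta A subunit gene of activin A (ENSMUSG00000041324, chromosome 13, 16011851 to 16031621), was at 1.03, 0.836, 1.77 and 2.17 FPKM in KO 1 to KO 4, against 1.26, 2.84, 1.01 and 3.32 FPKM in WT 1 to WT 4. The groups overlapped, and WT 2 and WT 4 lay above all KO libraries. The means were 1.45 ± 0.624 FPKM in KO and 2.11 ± 1.14 FPKM in WT (SD, n = 4 each), a log2 difference of -0.30 ± 0.30 (SE). Gm48444 and B230303A05Rik, annotated on the other strand, overlap Inhba. Since the use of strand is not given, their reads cannot be told apart from those of Inhba. Inhbb, the beta B subunit gene (ENSMUSG00000037035, chromosome 1, 119415465 to 119422248), ranged over 0.0272 to 0.173 FPKM in KO livers and 0 to 0.0958 FPKM in WT livers, with 2 WT libraries listed at 0. Over its single transcript this is about 1.8 to 10.1 reads in KO and 0 to 5.1 reads in WT, and a difference was not tested.

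Fst, the follistatin gene (ENSMUSG00000021765, chromosome 13, 114452290 to 114458951), was at 2.37, 0.168, 3.38 and 2.07 FPKM in KO 1 to KO 4, against 1.02, 0.833, 1.16 and 1.23 FPKM in WT 1 to WT 4. KO 1, KO 3 and KO 4 lay above all WT libraries and KO 2 lay below all of them. The means were 1.997 ± 1.34 FPKM in KO and 1.06 ± 0.175 FPKM in WT (SD, n = 4 each), with a log2 difference of 0.39 ± 0.36 (SE), and of 0.79 without KO 2. KO 2 was the lowest KO library of Fst, Tgfb1, Tgfbr1, Inhba and Inhbb and the highest of Tgfbr2, Smad3 and Inhbe. An antisense gene, Gm47040, overlaps Fst and shares 86 of its 4706 stretches of 31 bases.

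Receptors and ligands of this family are made by several liver cell types, and in bulk tissue fewer cells of a type and less RNA per cell cannot be told apart. Hepatocyte markers (7 of 7 tested) overlapped between the groups, and the summed levels of macrophage, endothelial and stellate cell markers did not overlap. Of 11 macrophage markers 10 had every KO library above every WT library. Among all genes tested, 3.05% had KO above WT without overlap. Some markers counted in these 3 lists, such as Timd4 and Des, were below the filter. The summed level of the macrophage markers was 88.5, 20.4, 153 and 112 FPKM in KO 1 to KO 4, against 6.56, 8.19, 11.9 and 14.7 FPKM in WT 1 to WT 4. Sinusoidal endothelial markers, of which 6 of 9 had KO above WT without overlap, summed to 22.5, 8.37, 23.5 and 19.5 FPKM in KO 1 to KO 4, against 2.39, 4.75, 6.45 and 6.02 FPKM in WT 1 to WT 4. Stellate cell markers, of which 9 of 11 had KO above WT without overlap, summed to 35.8, 18.4, 19.8 and 28.7 FPKM in KO 1 to KO 4, against 4.75, 4.79, 9.95 and 10.3 FPKM in WT 1 to WT 4. The limma fit held 21 markers of these 3 lists, of which 0 passed the threshold and 21 had an unadjusted p under 0.05. Of the 21, 12 had a WT mean under 1 FPKM and entered the fit only through KO, so no weight is put on that count.

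Among KO libraries, KO 2 had the lowest sums of all 3 of these marker lists. Its Tgfbr2 level was 6.90 FPKM, beside 5.86 to 6.06 FPKM in the other KO libraries, so its rank in Tgfbr2 carries little. Leaving out KO 2 changed the Tgfbr2 difference to 1.52. Then 15 markers passed the threshold, all higher in KO, beside 90 higher and 44 lower among the 11266 genes tested. Some of these markers, such as Adgre1 and Vsig4, had entered the fit only through KO, so no weight is put on this count either. Tgfb1 and Fst were lowest in KO 2 among KO libraries, as were Tgfbr1, Inhba and Inhbb. All 3 marker sums of KO 2 still lay above every WT library. In the same library Tgfb1 lay inside the WT range and Fst below it. The part of these cell types in the levels of Tgfbr2, Tgfb1 and Fst was not tested. Markers of T and NK cells, B cells and neutrophils were near 0 in all libraries, with sums of at most 0.818 FPKM, and Klrb1c, an NK cell marker, was at 0 throughout. Cholangiocyte markers summed to 0.527 to 6.84 FPKM in KO and 0.269 to 0.792 FPKM in WT, nearly all of it Spp1 in KO 1 and KO 3, while Sox9 of the same list was at 0.0157 to 0.123 FPKM in KO and 0.134 to 0.462 FPKM in WT, without overlap. Red cell markers summed to 1.86 to 3.14 FPKM in KO and 0.972 to 2.61 FPKM in WT.

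**Figure D3:**
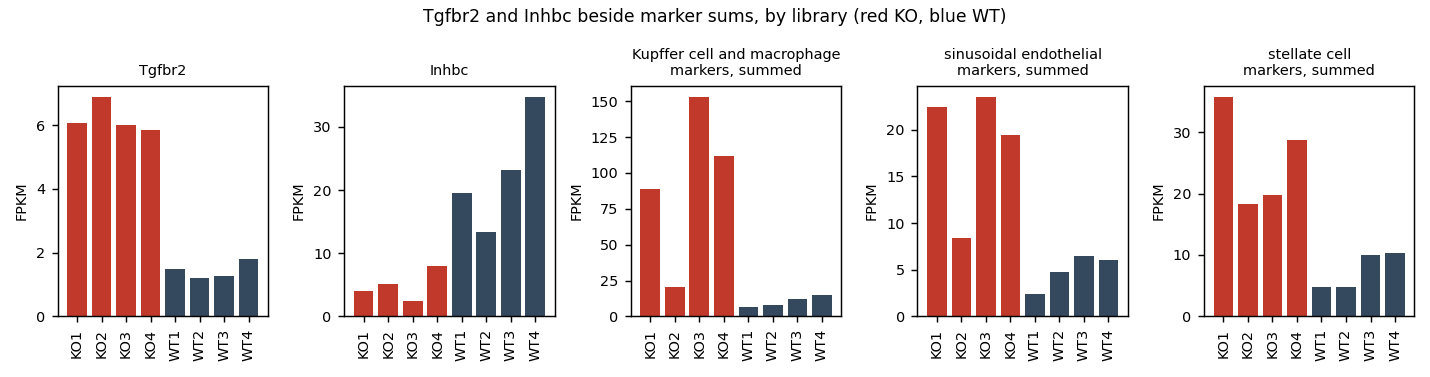
FPKM of Tgfbr2 and Inhbc and summed FPKM of macrophage, sinusoidal endothelial and stellate cell markers in each library (red KO, left; blue WT, right). Each bar is 1 library. Tgfbr2 lies between 5.86 and 6.90 FPKM in the KO libraries, and all 3 marker sums are lowest in KO 2 among them. A relation between these levels was not tested.

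The rest of the pathway showed no call. Among the 122 listed genes measured, 58 were tested, and limma put 0 past the adjusted threshold in either direction, while 10 had an unadjusted p under 0.05 (8 higher, 2 lower in KO). The background share with an unadjusted p under 0.05 was 9.81% of all genes tested. Of the higher genes, Ltbp4, Bmp2, Tgfbi and Nox4 reached the filter only through KO, and of the lower ones Acvr2b only through WT. No weight is therefore put on the count of unadjusted p. The median log2 difference of the 58 was -0.02, beside -0.03 for all genes tested. Without KO 2, Ltbp4 and Eng passed (limma adjusted p = 0.0231 and 0.0289), so this count of 0 rests on that library.

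Among genes of TGF-beta latency and activation, 4 of 16 were tested and 0 passed (median 0.23). Ltbp4, which tethers latent TGF-beta to the matrix, was at 1.98, 0.823, 2.69 and 1.94 FPKM in KO 1 to KO 4, against 0.204, 0.379, 0.563 and 0.233 FPKM in WT 1 to WT 4, without overlap (log2 difference 1.05 ± 0.23, limma adjusted p = 0.0981). It reached the filter only through its KO level. Furin, the protease that cleaves TGF-beta and activin precursors, was at 65.9 ± 10.3 FPKM in KO and 48.8 ± 3.50 FPKM in WT (log2 difference 0.42 ± 0.17, limma adjusted p = 0.438). Its groups narrowly did not overlap, at 52.7 FPKM or more in KO and 52.1 FPKM or less in WT. Among all genes tested, 3.05% had KO above WT without overlap. Furin was picked after its values were seen. The ligand genes Tgfb2 and Tgfb3 were not tested, lying at 0.107 FPKM or less in all libraries.

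Of the other activin, inhibin and GDF genes, Gdf15, a stress-induced ligand gene, was the single gene tested of 12 measured, at 24.6 ± 9.24 FPKM in KO and 19.2 ± 6.24 FPKM in WT (log2 difference 0.32, limma adjusted p = 0.860). Among BMP ligands and antagonists 4 of 15 were tested and 0 passed (median -0.03). Bmp2, a ligand made by liver endothelium, was at 3.17, 1.01, 1.84 and 1.50 FPKM in KO 1 to KO 4, against 0.0670, 0.434, 0.850 and 0.440 FPKM in WT 1 to WT 4 (log2 difference 0.97 ± 0.26, limma adjusted p = 0.167). The groups of Bmp2 did not overlap, and it too reached the filter through KO.

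The other type I and type II receptors had 6 of 10 tested and 0 past the threshold (median -0.09). Acvr2b, a type II activin receptor gene, was at 0.661, 0.626, 0.453 and 0.630 FPKM in KO 1 to KO 4, against 1.95, 1.57, 1.03 and 1.09 FPKM in WT 1 to WT 4. All KO values of Acvr2b were under all WT values (log2 difference -0.58 ± 0.18, limma adjusted p = 0.255), and the gene reached the filter through WT. Its relative Acvr2a was at 3.78 ± 1.34 FPKM in KO and 4.36 ± 0.9000 FPKM in WT (limma adjusted p = 0.889). Among coreceptors and receptor regulators 6 of 11 were tested and 0 passed (median -0.05). Eng, the endothelial coreceptor endoglin, was at 5.60, 2.59, 4.28 and 6.62 FPKM in KO 1 to KO 4, against 0.740, 1.30, 1.87 and 1.58 FPKM in WT 1 to WT 4, without overlap (log2 difference 1.25 ± 0.27, limma adjusted p = 0.0866). Like the marker sums, Eng was lowest in KO 2 among KO libraries.

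Of 24 other Smads and Smad regulators 20 were tested and 0 passed, with 6 positive and 14 negative differences (median -0.07). Smurf1, a ubiquitin ligase gene for Smads and receptors, had the smallest p, at 1.25 ± 0.101 FPKM in KO and 1.79 ± 0.306 FPKM in WT (log2 difference -0.30, limma adjusted p = 0.605). Smad4, the common partner of the receptor-regulated Smads, was at 6.59 ± 1.001 FPKM in KO and 6.43 ± 0.992 FPKM in WT (limma adjusted p = 0.982).

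TGF-beta response genes had 12 of 27 tested and 0 past the threshold, with 7 positive and 5 negative differences. Their median was 0.08, and it was -0.33 without WT 2, -0.06 without WT 1 and -0.01 without KO 1. Nox4, an NADPH oxidase gene, had the smallest p, at 0.810, 5.83, 1.28 and 6.33 FPKM in KO 1 to KO 4, against 0.141, 0.131, 0.412 and 0.709 FPKM in WT 1 to WT 4 (log2 difference 1.51 ± 0.45, limma adjusted p = 0.232). Nox4 was high in KO 2 and KO 4, the libraries that were also high in Inhbe, and reached the filter through KO. The collagen genes Col1a1, Col1a2 and Col3a1 and the matrix gene Postn were below the filter and not tested, and in all 4 every KO library lay above the WT range. Col3a1 was at 0.205 to 1.02 FPKM in KO and 0.0158 to 0.0612 FPKM in WT, Col1a1 at 0.102 to 0.462 FPKM in KO and 0 to 0.0605 FPKM in WT, Col1a2 at 0.145 to 0.355 FPKM in KO and 0 to 0.116 FPKM in WT, and Postn at 0.104 to 0.404 FPKM in KO and 0 to 0.0969 FPKM in WT. Col1a1 and Col3a1 also stand among the stellate cell markers. BMP response genes had 5 of 7 tested and 0 past the threshold (median 0.28). Id1, an inhibitor of basic helix-loop-helix factors, was at 6.92 ± 3.08 FPKM in KO and 4.77 ± 4.52 FPKM in WT, and Hamp, the hepcidin gene, at 1569 ± 548 FPKM in KO and 1267 ± 372 FPKM in WT (limma adjusted p = 0.754 and 0.889).

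**Figure D4:**
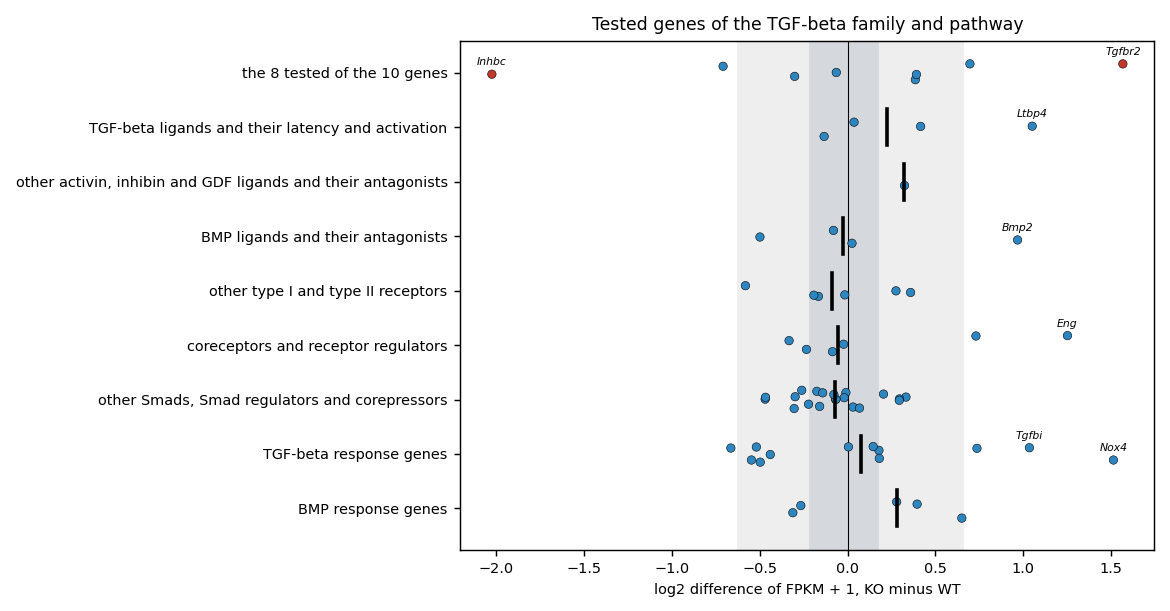
Difference of log2(FPKM + 1), KO minus WT, for tested genes of the family (top row) and of the 8 pathway lists. Each point is a gene, black bars are the medians of the lists, red points passed the limma threshold of 0.05, and grey bands hold the middle 50% and 90% of all genes tested. Tgfbr2 and Inhbc are the red points, and the genes of the 8 lists are all blue.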

How the data were processed

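RNA of 8 liver libraries (4 KO, 4 WT) was sequenced. The authors deposited 1 table of FPKM values for 35638 Ensembl genes with symbols. Per the submitters' processing notes, TopHat, edgeR and build mm10 had a part in it, and neither role nor version is recorded there. Which counting program, annotation release and strand setting they used is not given in the sources used here. Extraction was with Trizol and a Qiagen kit, and libraries used Nugen reagents, per the labels' protocols. Columns were matched to samples by name, and 99.4% of gene IDs matched GENCODE M21 (GRCm38, the build mm10), which gave coordinates and transcripts. The promoter windows are RefSeq's.

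FPKM divides by gene length and library size, so abundant transcripts lower the values of others, and low genes are imprecise. Genes with a mean of at least 1 FPKM were compared as log2(FPKM + 1) with limma 3.58.1 in R 4.3.3 (genotype term, intensity trend, two-sided, Benjamini-Hochberg over 11266 genes, threshold 0.05). Differences on this scale understate changes of low genes. The fit was also run on simulated data with independent normal noise. Such data hold no single libraries far above the rest, so that run cannot speak to genes that show them here. Count tests were not run on FPKM. Depth came from the spacing of the lowest values in 12059 genes with a single transcript of 400 nt or more. After scaling, 56.4 to 60.5% of those values were whole numbers to a tolerance of 0.1, too few to recover reads. The read numbers given for genes are therefore rough estimates. Plots used Python 3.11.15 and matplotlib 3.10.9.

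The members, pathway lists and marker lists were chosen with earlier results of these data known. Pathway genes were named as those past the threshold, up to 4 a list, or else the gene with the smallest p, and other genes named were picked after their values were seen. Of 195 listed genes 9 are not analysed here. A planned comparison of proteins was not made. Alternatives were 2 other pseudocounts (0.1 and 5 FPKM), a filter at 5 FPKM or none, equal sums, quantile or median ratio scaling, no trend, array weights, a replicate block, each library left out, and WT 4 and KO 2 left out together.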

Additional observations from a re-analysis of the deposited data

Results flagged for a closer look

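In 66 groups of 4 libraries (33 measures in each genotype), 4 held a library whose gap to the nearest other one exceeded Dixon's critical value. With normally distributed values, chance flags about 1 in 20 groups. Tgfbr1 stood apart in both groups, at 4.46 FPKM in KO 1 with the other KO libraries at 0.687 to 1.26 FPKM, and at 4.60 FPKM in WT 1 with the other WT libraries at 0.879 to 1.35 FPKM. Id1 reached 11.5 FPKM in WT 1, with 1.97 to 3.46 FPKM in the other WT libraries. Summed neutrophil markers reached 0.196 FPKM in WT 2, with 0 to 0.0187 FPKM in the other WT libraries. All of the sum in WT 2 was Camp, a value near the floor, so nothing is read from this flag.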

How the results depend on the processing

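Since the members were chosen on this contrast, their values here are a description and no sign of stability. The log2 difference of Tgfbr2 ran from 0.80 with a pseudocount of 5 to 2.05 with 0.1, and a minimum of 5 FPKM left the gene out. That of Inhbc ran from -2.25 to -1.46, and it was not past the threshold with no filter, with the replicate block, without WT 4 and KO 2 together, and without each of KO 1, KO 3, WT 1, WT 3 and WT 4. The sign of Inhba turned in 1 of 18 alternatives and that of Tgfbr1 in 3 of 18. Over all genes, 46 were higher and 40 lower in KO. The numbers were 27 higher with a pseudocount of 5, 14 higher and 13 lower with a minimum of 5 FPKM, 26 lower with no filter, and 71 higher without WT 4 and KO 2 together. Leaving out 1 library gave 20 to 90 higher and 14 to 44 lower, the most higher without KO 2. With the replicate number as a block 16 were higher and 8 lower. No label says that the numbers mark a shared litter or day, and deviations of same-numbered libraries correlated at 0.0964, -0.0668, 0.0151 and 0.25 for numbers 1 to 4, KO 4 being the only KO library that correlated best with its own number. Listed pathway genes higher in KO numbered 0 to 2 with 1 library left out (2, Ltbp4 and Eng, without KO 2) and 1 (Ltbp4) without WT 4 and KO 2 together, and 0 were lower in any alternative. Markers higher in KO numbered 2 with array weights, 12 without WT 4 and KO 2 together, and 0 to 15 with 1 library left out (15 without KO 2, 1 without WT 4). The median of TGF-beta response genes, 0.08, was -0.50 with a minimum of 5 FPKM and -0.01 with equal sums, and kept its sign in 14 of 19 alternatives. The sign was kept in 11 of 19 for BMP ligands, 17 of 19 for coreceptors and 17 of 18 for the other receptors. Scaling to equal sums put the median of all genes at -0.12 in place of -0.03. The cause of these shifts was not tested. At about 12400000 to 15200000 reads a library, Inhbb and Tgfb1 rest on few reads.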
